A study of Rattus norvegicus with 9 samples.

Results

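The genes described here are 9 members of the renin-angiotensin-aldosterone and kinin systems, chosen by name: Agt, Ace, Cma1, Mme, Agtr1a, Agtrap, Atp6ap2, Bdkrb2 and Nr3c2. All 9 were found among the 22601 genes of the deposited table by exact match of the gene symbol. RNA of heart tissue was sequenced from 48-week-old rats in 3 groups of 3 libraries. WKY (Wistar Kyoto) is the normotensive strain and SHR is the spontaneously hypertensive strain, and both received distilled water by mouth for 34 weeks. The last group, called treated SHR below, consisted of SHR given allisartan in 1 ml of distilled water by mouth for the same 34 weeks. Allisartan blocks the angiotensin II type 1 (AT1) receptor, the product of Agtr1a. WKY differs from both other groups in strain. The untreated strains also differ in blood pressure, and strain and pressure cannot be told apart here. Blood pressure under treatment was not used here. The labels name neither the part of the heart taken nor a separate rat for every library. P-values therefore measure only how these libraries vary, which may be technical.

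Angiotensinogen, the product of Agt, is cut to angiotensin I, which the angiotensin-converting enzyme, the product of Ace, turns into angiotensin II. Angiotensin II acts in the heart through the AT1 receptor and promotes the release of aldosterone from the adrenal gland, and aldosterone acts on the mineralocorticoid receptor encoded by Nr3c2. The same converting enzyme destroys bradykinin, which acts on the B2 receptor encoded by Bdkrb2, so the converting enzyme joins both systems.

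Values are deposited FPKM (fragments scaled by transcript length and library size) divided by 1 rescaling factor per library, and each mean ± SD has n = 3. A log2 change is the difference between 2 groups in their mean log2(rescaled FPKM + 0.5), and the added 0.5 makes it too small for genes of low level. A gene was called when the adjusted p of limma was under 0.05 over all 11717 genes that reached 0.5 rescaled FPKM in at least 3 libraries. Of the 9 members 7 were tested, and Agt and Cma1 were too low. In bulk tissue, fewer cells of a type and less RNA per cell cannot be told apart. The tissue expressed all 10 markers listed for ventricular cardiomyocytes. Among them Myl2 had means of 1135, 1127 and 1673 FPKM in WKY, SHR and treated SHR. Of the markers listed for atrial cardiomyocytes, Myl7 had means of 1.43, 1.74 and 0.671, while Nppa was at 1872, 4289 and 340. The part of the heart taken was not tested. The summed level of the 10 ventricular markers in FPKM was 32679 to 34992 for WKY, 28846 to 29226 for SHR and 38904 to 40309 for treated SHR. These markers did not move together: 2 of 10 rose and 4 fell in SHR against WKY, and 6 rose and 4 fell with treatment, with Fabp3 at a log2 change of 0.75 and Ttn at -1.42. Of all tested genes 11.9% rose and 9.93% fell in SHR against WKY, and 16.1% rose and 17.4% fell with treatment. The 3 lung markers were listed at 0 in all libraries, and the 4 kidney markers together were at most 0.213 FPKM. Total FPKM per library was 359207 to 388172, and the number of reads per library is not given in the sources used here.

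Ace and Bdkrb2 were higher in SHR than in WKY and lower in treated SHR than in SHR. Agtr1a, which encodes the receptor that the drug blocks, had group means of 0.816 to 0.894 FPKM with wide spread and was not called. Atp6ap2 was lower in treated SHR than in WKY, and Nr3c2 was highest in treated SHR without passing the threshold. Agt was low in WKY and SHR and listed at 0 in all 3 treated libraries. In a test for any difference among the 3 groups, 2 of the 7 tested members passed, where 42.3% of all tested genes did. These were Ace (limma F-test, adjusted p = 0.00195) and Bdkrb2 (adjusted p = 0.00153). Atp6ap2 missed the threshold (adjusted p = 0.0525).

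**Figure D1:**
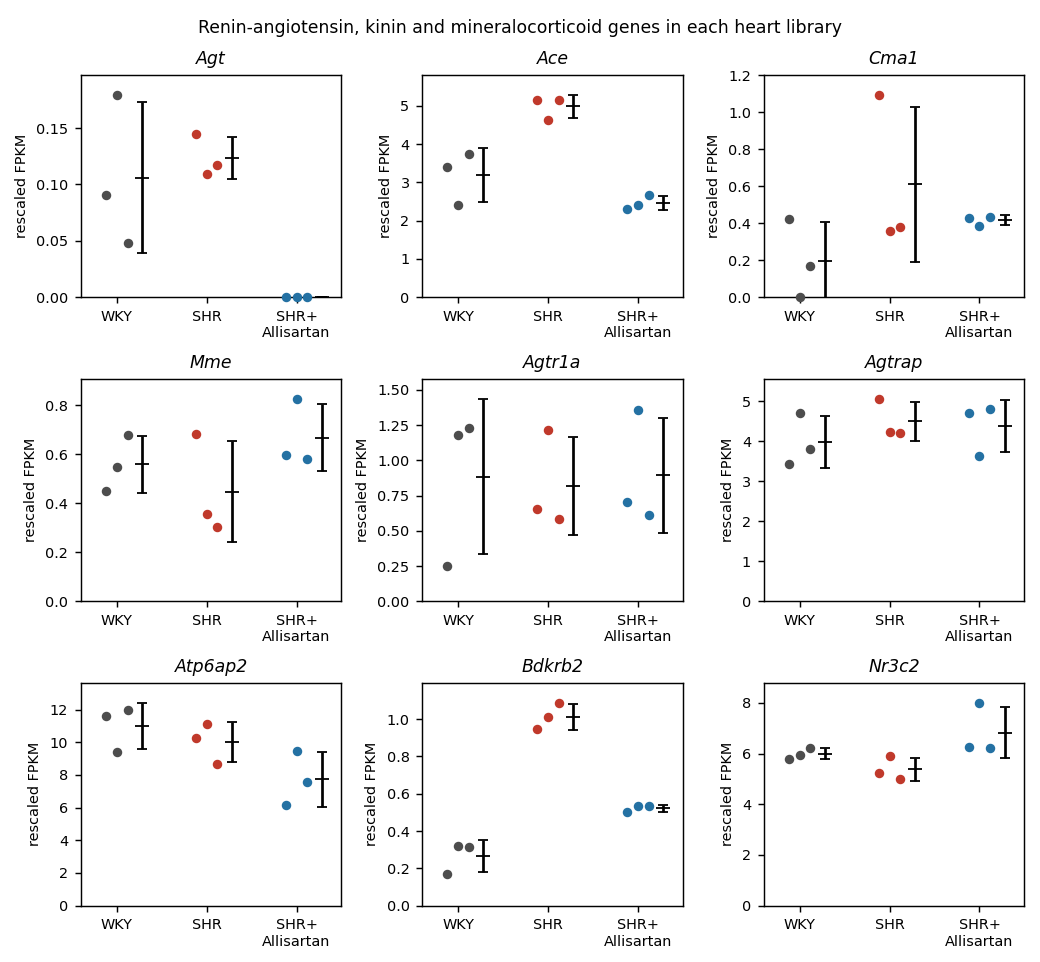
Rescaled FPKM (linear axis from 0) of the 9 genes in each of the 3 libraries of WKY, SHR and treated SHR (SHR+Allisartan), with the mean and SD beside the points. Ace and Bdkrb2 separate SHR from the other groups, while the points of Agtr1a spread from 0.251 to 1.36 with full overlap.

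RefSeq promoter windows on build GRCr8 were available for 6 of the 9 members (Ace, Agtr1a, Mme, Cma1, Agtrap and Atp6ap2). No entry was found for Agt, Bdkrb2 and Nr3c2. The windows of the 2 called members among these are printed because Ace moved with strain and treatment and Atp6ap2 was lower in treated SHR than in WKY. Each is the 250 bases before the annotated start, 5′ to 3′ on the gene's strand, at chr10:91409879-91410128 (plus strand) for Ace and chrX:12883671-12883920 (minus strand) for Atp6ap2. Capitals mark any match, on either strand, to the GC box GGGCGG, the CCAAT box CCAAT, the TATA element TATAA, the AP-1 element TGANTCA or the E-box CACGTG.
Ace: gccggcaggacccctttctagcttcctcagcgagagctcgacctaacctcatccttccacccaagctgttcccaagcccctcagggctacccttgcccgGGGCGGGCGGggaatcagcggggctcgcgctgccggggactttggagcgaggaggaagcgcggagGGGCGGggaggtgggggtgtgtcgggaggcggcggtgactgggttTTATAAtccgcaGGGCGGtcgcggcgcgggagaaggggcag
Atp6ap2: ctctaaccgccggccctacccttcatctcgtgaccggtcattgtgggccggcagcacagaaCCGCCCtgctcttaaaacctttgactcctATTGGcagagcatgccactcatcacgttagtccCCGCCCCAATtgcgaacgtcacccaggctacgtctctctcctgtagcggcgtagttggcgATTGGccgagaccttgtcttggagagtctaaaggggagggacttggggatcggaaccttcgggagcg

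In the Ace window the capitals are 4 GC boxes, 2 of which overlap, and a TATA element found on both strands. The TATA match on the gene's strand begins 40 bases before the annotated start. In the Atp6ap2 window they are 2 GC boxes and 3 CCAAT boxes, 1 of which shares a base with a GC box. Of 27457 rat promoter windows of the same length, 32.4% held a GC box, 34.3% a CCAAT box, 24.1% a TATA element, 6.36% an AP-1 element and 5.79% the E-box. The Ace window was 69.2% G and C and the Atp6ap2 window 58.8%, against a median of 52.0% over all windows. A match describes the letters of the window.

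Among the genes that make or break the peptides, Ace was the only tested member to be called in any comparison. Ace was at 3.41, 2.41 and 3.75 FPKM in the WKY libraries, at 5.15, 4.63 and 5.16 in SHR and at 2.30, 2.40 and 2.67 in treated SHR. All 3 SHR libraries lay above all others, and the treated libraries overlapped only with the lowest WKY library. The mean rose from 3.19 ± 0.695 in WKY to 4.98 ± 0.305 in SHR, a ratio of 1.56 (log2 change 0.59, SE 0.142, adjusted p = 0.0142). It fell to 2.46 ± 0.193 in treated SHR, a log2 change of -0.89 from SHR (SE 0.142, adjusted p = 0.00105). Treated SHR and WKY did not differ past the threshold (log2 change -0.30, 95% interval -0.62 to 0.01, adjusted p = 0.149). The fall with treatment was called in each of 21 alternative analyses. The rise in SHR was called in 20 of 21 and missed without SHR replicate 3 (adjusted p = 0.0525). Without WKY replicate 2, the library with the lowest WKY value, Ace was also called lower in treated SHR than in WKY (log2 change -0.46, adjusted p = 0.0286). This was the only 1 of 21 alternatives to call it, and without WKY replicate 3 the log2 change was -0.19 (adjusted p = 0.399).

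Endothelial cells are a main site of converting enzyme. The 8 endothelial markers had sums of 153 to 173 FPKM for WKY, 153 to 165 for SHR and 152 to 167 for treated SHR, so these sums overlapped among all groups. Of those 8 markers none was called between SHR and WKY, and 2 rose and 1 fell with treatment. The 8 macrophage markers had sums of 136 to 155 FPKM for WKY, 378 to 449 for SHR and 200.2 to 245 for treated SHR. The 8 fibroblast markers summed to 436 to 484, 773 to 828 and 462 to 521 in the same order. Of the macrophage markers 8 of 8 rose in SHR against WKY, of the fibroblast markers 6 of 8, and with treatment 6 and 7 of them fell. For these and the endothelial counts, the shares over all tested genes were 11.9% higher and 9.93% lower in SHR against WKY. With treatment they were 16.1% higher and 17.4% lower. The macrophage and fibroblast sums moved in the same order as Ace between SHR and the other groups, and their part in the change of Ace was not tested.

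Mme encodes neprilysin, a membrane peptidase that degrades bradykinin, angiotensin I and natriuretic peptides. Its level was 0.448, 0.549 and 0.679 FPKM in WKY, 0.682, 0.357 and 0.305 in SHR and 0.597, 0.825 and 0.580 in treated SHR. The 3 groups overlapped pairwise. The log2 change was -0.17 in SHR against WKY (95% interval -0.59 to 0.24, adjusted p = 0.554) and 0.31 with treatment (-0.10 to 0.73, adjusted p = 0.226). Neither was called in any alternative analysis.

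Agt and Cma1 did not reach the level needed for the test. Agt was at 0.0908, 0.179 and 0.0478 FPKM in WKY and at 0.144, 0.109 and 0.117 in SHR, and was listed at 0 in each of the 3 treated libraries. WKY and SHR overlapped, and every treated library lay below every other library. An exact 0 in a table without counts can be a failed estimate as well as an absence of reads. Exact two-sided permutation tests gave p = 0.8 for SHR against WKY and 0.1 for treated SHR against either group (0.96, 0.3 and 0.3 after adjustment over the 6 tests of Agt and Cma1). With 3 libraries against 3, the smallest p these tests can give is 0.1. With no filter on low values, limma gave adjusted p-values of 0.0179 for treated SHR against SHR and 0.0455 against WKY over 16612 genes. All 3 treated values are 0, so the treated group adds no spread to these tests. Each treated library listed fewer genes above 0 (14279, 14371 and 14538) than any SHR library (14844, 14948 and 14911). The WKY libraries (14489, 14523 and 14677) overlapped with the treated libraries in this number. Its part in the zeros of Agt was not tested. Adipocytes also make angiotensinogen, and the 6 adipocyte markers together were at most 0.150 FPKM in any library.

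Cma1 encodes a mast cell chymase, an enzyme type known from the human heart as another route to angiotensin II. It was at 0.421, 0 and 0.171 FPKM in WKY, at 1.09, 0.361 and 0.379 in SHR and at 0.430, 0.384 and 0.434 in treated SHR. SHR replicate 1 stood alone, and the other 5 SHR and treated libraries lay between 0.361 and 0.434. Exact permutation tests gave p = 0.3 for SHR against WKY, 1.0 for treated SHR against SHR and 0.2 for treated SHR against WKY. Cma1 belongs to a family of related mast cell protease genes, so its level is uncertain where the authors' counting could split reads. The 10 mast cell markers had sums of 8.93 to 10.6 FPKM for WKY, 9.38 to 12.6 for SHR and 15.6 to 17.0 for treated SHR, with Mcpt1 at 0 in all libraries. Of the 4 tested, 1 rose in SHR against WKY and 2 rose with treatment, and none fell, where 11.9% and 16.1% of all tested genes rose. The mast cell markers that rose with treatment were Tpsb2 (2.30 to 6.90 FPKM) and Gata2 (3.17 to 5.63). The other tested markers, Tpsab1 (1.24 to 1.17) and Kit (2.31 to 1.92), were not called with treatment. Untested markers with a lower mean in treated SHR than in SHR were Cpa3 (0.524 to 0.515), Ms4a2 (0.134 to 0.0551), Fcer1a (0.0508 to 0.0214) and Mcpt2 (0.771 to 0.0506). The untested Hdc had a higher mean (0.0763 to 0.104).

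Neither Agtr1a nor the members Agtrap and Atp6ap2 were called in SHR against WKY. Agtr1a was at 0.251, 1.18 and 1.23 FPKM in WKY, at 0.653, 1.21 and 0.582 in SHR and at 0.705, 1.36 and 0.616 in treated SHR. WKY replicate 1 was the lowest of all 9 libraries, replicate 2 was the highest within SHR and within treated SHR, and all groups overlapped. The log2 change was -0.01 in SHR against WKY (95% interval -0.74 to 0.72, adjusted p = 0.990) and 0.08 with treatment (-0.66 to 0.81, adjusted p = 0.883). These intervals are wide enough to hold changes in either direction. The near-identical copy Agtr1b was listed at 0 in all 9 libraries.

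Agtrap encodes a protein that binds the tail of the AT1 receptor and promotes its uptake into the cell. It was at 3.43, 4.71 and 3.82 FPKM in WKY, at 5.06, 4.23 and 4.22 in SHR and at 4.72, 3.65 and 4.82 in treated SHR, with overlap between all groups. The log2 change was 0.16 in SHR against WKY (95% interval -0.15 to 0.47, adjusted p = 0.450) and -0.04 with treatment (-0.35 to 0.27, adjusted p = 0.868). It was not called in any alternative.

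Atp6ap2 encodes the (pro)renin receptor, which is also an accessory subunit of the vacuolar proton pump. It had the highest level of the 9 genes per length, at 11.6, 9.37 and 12.0 FPKM in WKY, at 10.3, 11.1 and 8.67 in SHR and at 6.13, 9.49 and 7.55 in treated SHR. Treated SHR replicates 1 and 3 lay below all other libraries, and replicate 2 lay among the WKY and SHR values. Its level in treated SHR was below that of WKY (10.98 ± 1.41 against 7.72 ± 1.68, log2 change -0.49, SE 0.155, adjusted p = 0.0405). The call held in 12 of 21 alternatives. It was lost without WKY replicate 1 (0.111), WKY replicate 3 (0.119), SHR replicate 1 (0.0520), treated SHR replicate 1 (0.130) or treated SHR replicate 3 (0.0849), with the replicate number as a block (0.0614) and in 3 other alternatives. Against SHR the log2 change was -0.37 (adjusted p = 0.0904), which was called in 1 of 21 alternatives. It ranged from -0.22 without treated SHR replicate 1 (0.297) to -0.52 without treated SHR replicate 2 (0.0282).

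Bdkrb2, the gene of the B2 receptor of bradykinin, had the largest relative difference among tested members in SHR against WKY. It was at 0.170, 0.318 and 0.313 FPKM in WKY, at 0.945, 1.01 and 1.09 in SHR and at 0.4997, 0.532 and 0.532 in treated SHR. The 3 groups did not overlap, and treated SHR lay between WKY and SHR. The mean in SHR was 3.79 times that in WKY (1.01 ± 0.0705 against 0.267 ± 0.0839, log2 change 0.99, SE 0.149, adjusted p = 0.00121). In treated SHR the mean was 0.521 ± 0.0187, a log2 change of -0.57 from SHR (adjusted p = 0.0144). Treated SHR stood at 1.95 times WKY, which missed the threshold (log2 change 0.42, adjusted p = 0.0642). The rise in SHR was called in all 20 alternatives in which the gene was tested, with a log2 change of 0.67 with a pseudocount of 1 to 1.63 with one of 0.1, and the fall with treatment in 19 of 20. Without SHR replicate 3 the adjusted p of the fall was 0.0544. All WKY values and treated SHR replicate 1 were under the level of the filter. The 3 SHR libraries alone were enough for the gene to be tested, so its calls involving SHR are not independent of the filter. With no filter on low values the difference between treated SHR and WKY was called (0.0327), as with cyclic loess normalization (0.0498). Macrophage and fibroblast marker sums, given with Ace, were also highest in SHR, and their part in the change of Bdkrb2 was not tested. The B1 receptor gene Bdkrb1 was at most 0.0743 FPKM in SHR and was listed at 0 in the other groups.

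Nr3c2, the mineralocorticoid receptor gene, was at 5.80, 5.93 and 6.23 FPKM in WKY, at 5.23, 5.89 and 5.02 in SHR and at 6.27, 7.99 and 6.23 in treated SHR. The treated libraries lay above all SHR libraries by a narrow gap, and replicate 2 stood well above the other treated libraries. The log2 change with treatment was 0.31 (SE 0.112, 95% interval 0.07 to 0.56), which missed the threshold at an adjusted p of 0.0523. It passed in 7 of 21 alternatives, among them quantile normalization (0.0393), cyclic loess (0.0407), the replicate block (0.0479) and leaving out treated SHR replicate 3 (0.0449), over a range of 0.0167 to 0.180. Without treated SHR replicate 2 the log2 change was 0.20, which gave the highest of these adjusted p-values, and it missed in 14 alternatives in all. In SHR against WKY the log2 change was -0.14 (adjusted p = 0.395).

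**Figure D2:**
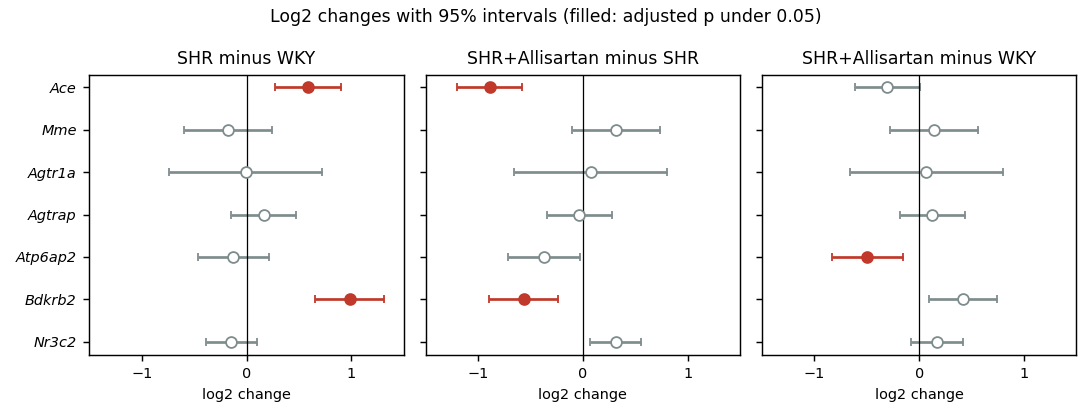
Log2 changes of the 7 tested genes with 95% intervals from limma in the 3 comparisons, filled red where the adjusted p was under 0.05. Ace and Bdkrb2 lie right of 0 in SHR minus WKY and left of 0 in SHR+Allisartan minus SHR, and the interval of Agtr1a reaches from -0.74 to 0.72 in SHR minus WKY.

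The counts of members are read beside all tested genes. In SHR against WKY, 2 of 7 tested members rose and 0 fell, where 21.9% of all tested genes were called, 11.9% rose and 9.93% fell. With treatment 0 rose and 2 fell, where 33.5% were called, 16.1% rose and 17.4% fell. In treated SHR against WKY 0 rose and 1 fell, where 24.3% were called and 11.4% fell. Higher genes made up 54.6% of all calls in SHR against WKY and 48.1% with treatment, and 64.6% and 38.1% with the deposited FPKM not rescaled. With 7 genes these counts are near the share of all genes and are not a result about the members as a group. Comparisons with treatment and with strain share the SHR libraries, so opposite signs in both are not independent of each other. Groups did not overlap for Ace and Bdkrb2 in SHR against WKY, where this held for 40.9% of tested genes. They did not overlap for Ace, Bdkrb2 and Nr3c2 with treatment, where it held for 46.4%, nor for Bdkrb2 in treated SHR against WKY, where it held for 40.1%.

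**Figure D3:**
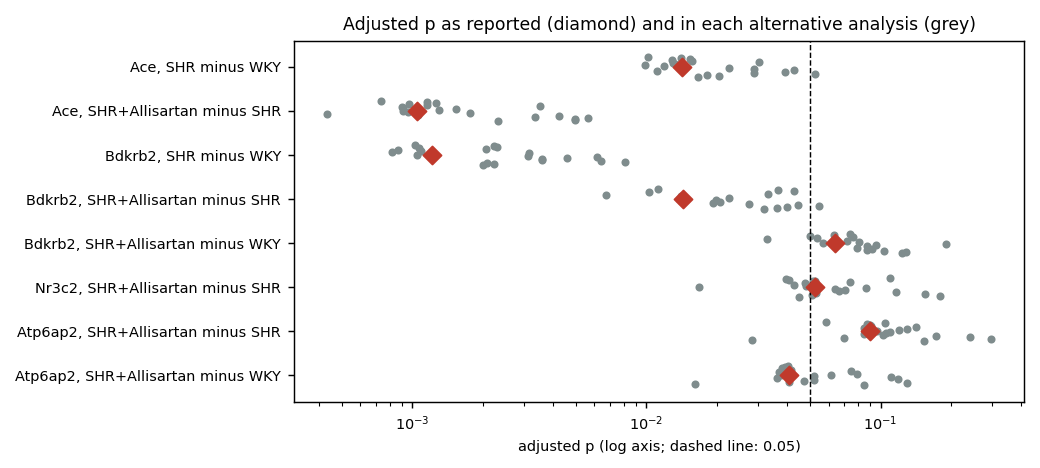
Adjusted p (log axis) of 8 differences as reported (diamond) and in each alternative analysis (grey points), with 0.05 as a dashed line. Points of Ace with treatment and of Bdkrb2 in SHR all lie left of the line, while those of Nr3c2 and Atp6ap2 fall on both sides.

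The genes with the pattern most like that of a called member were taken as those with the highest Pearson correlation over the 9 libraries among tested genes. The libraries fall into 3 groups, so this likeness includes the group differences and is a description. For Ace these were Nras (r = 0.977), Tnfrsf11b (0.976) and Ttc39b (0.975), and Tnfrsf11b, which encodes osteoprotegerin, was at mean levels of 1.09, 4.07 and 0.781 FPKM in WKY, SHR and treated SHR. For Bdkrb2 they were Prrg4 (0.988), Hip1 (0.987) and Selp (0.986), and for Atp6ap2 Lbr (0.965), Itpr2 (0.941) and Dennd2a (0.937). Selp, which encodes the endothelial and platelet adhesion molecule P-selectin, was at 0.0935, 0.589 and 0.236 FPKM in WKY, SHR and treated SHR. Only its SHR mean was above the level of the filter, so its likeness to Bdkrb2 is not independent of the filter.

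The rest of the pathway was read from 4 lists, whose counts are read beside all tested genes. Of all tested genes, 11.9% rose and 9.93% fell in SHR against WKY, and 16.1% rose and 17.4% fell with treatment. In treated SHR against WKY 12.9% rose and 11.4% fell. The median log2 changes over all tested genes were 0.01, -0.03 and -0.01 in the same order. The first list held 16 renin-angiotensin genes beside the members, of which 10 were tested. Agtr1b, Ctsg and Enpep were listed at 0 in all libraries. In SHR against WKY, 3 of the 10 rose and 0 fell, with a median log2 change of 0.10 against 0.01 over all tested genes. These were Anpep, Prcp and Dpp3, which encode peptidases that cut angiotensin peptides, and were called in 14, 17 and 14 of 21 alternatives. With treatment 0 rose and 5 fell, with a median of -0.24 against -0.03. Dpp3, the gene of dipeptidyl peptidase 3, fell from 3.98 ± 0.188 in SHR to 2.54 ± 0.487 (log2 change -0.57, adjusted p = 0.00742), and this was called in every alternative. The other 4 were Arap1, called in 18 of 21 alternatives, Prep in 15, Prcp in 11 and Rnpep in 4. In treated SHR against WKY, Anpep rose and Prep fell, called in 12 and 16 of 21 alternatives.

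The kinin list had 12 genes beside the member, of which 5 were tested. Klk1, which encodes tissue kallikrein, was listed at 0 in all libraries, and Kng1, which encodes the precursor of bradykinin, was above 0 in 1 library. In SHR against WKY 2 of 5 rose and 0 fell (median 0.12). Cpd, the gene of carboxypeptidase D, was at 31.8, 33.2 and 34.1 FPKM in WKY and 37.7, 48.2 and 48.7 in SHR (log2 change 0.43, adjusted p = 0.0116, and 0.0504 without SHR replicate 3). Xpnpep1, which encodes an aminopeptidase that can cut bradykinin, rose from 16.5 ± 1.25 to 21.2 ± 0.906 (log2 change 0.36, adjusted p = 0.0126, and 0.0518 without WKY replicate 1). With treatment 1 of 5 fell and 0 rose (median -0.11). This was Cpd, at 30.8, 34.8 and 33.2 FPKM in treated SHR (log2 change -0.43, adjusted p = 0.00736), called in every alternative. In treated SHR against WKY 0 of 5 were called (median 0.08).

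The corticoid list held 14 genes of steroid synthesis, corticoid receptors and their targets, of which 10 were tested. Cyp11b2, the gene of aldosterone synthase, was listed at 0 in all libraries. In SHR against WKY 0 of 10 rose and 2 fell (median -0.02), namely Per1 (log2 change -0.74, adjusted p = 0.0396) and Zbtb16 (-0.96, 0.0357), which are targets of corticoid receptors. Per1 lost this call without SHR replicate 1 (0.111), SHR replicate 3 (0.114), WKY replicate 2 (0.0923) or WKY replicate 3 (0.128), and Zbtb16 without SHR replicate 1 (0.0743), SHR replicate 2 (0.117), WKY replicate 1 (0.117) or WKY replicate 2 (0.111). With the replicate block both were lost (0.0520 and 0.0575), as they were with no filter on low values (0.0784 and 0.0750), and Zbtb16 was also lost with robust moderation (0.0566). With treatment 3 rose and 3 fell (median 0.24). Zbtb16 was at 10.4, 6.74 and 16.02 FPKM in SHR and 20.8, 28.2 and 33.1 in treated SHR (log2 change 1.33, adjusted p = 0.00558). Per1 was at 2.75, 4.02 and 3.07 in SHR and 11.4, 11.2 and 6.34 in treated SHR (log2 change 1.40, adjusted p = 0.00115). Per1 is also a clock gene, and the time of day at which hearts were taken was not used here. Sgk1, a serum- and corticoid-induced kinase gene often read as a target of the mineralocorticoid receptor, was at 8.43 ± 1.48 in SHR and 11.6 ± 3.50 in treated SHR and was not called (adjusted p = 0.199). Fkbp5, another target on the list, was not called in any of the 3 comparisons (log2 change 0.06, -0.09 and -0.03, limma adjusted p of 0.857, 0.734 and 0.916). Lcn2 and the receptor gene Nr3c1 were not called in any comparison either.

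The genes of the list that fell with treatment were Hsd11b1, Cyp11a1 and Star. Star was at 0.168, 0.165 and 1.56 FPKM in WKY, 0.770, 0.478 and 1.17 in SHR and 0, 0.0984 and 0 in treated SHR. No treated library reached the level of the filter. Star was thus tested only through SHR and WKY libraries, and its call with treatment is not independent of the filter. Hsd11b1 encodes the enzyme that regenerates active glucocorticoid. It was at 17.6, 17.6 and 17.8 FPKM in SHR and 9.33, 12.2 and 11.1 in treated SHR (log2 change -0.69, adjusted p = 0.00211). Cyp11a1, the gene of the enzyme that begins steroid synthesis, fell from 4.36 ± 0.484 to 2.65 ± 0.491 (log2 change -0.63, adjusted p = 0.00690). Both, with Per1 and Zbtb16, were called in every alternative for treatment, while Star and Tsc22d3, the third gene that rose, were not. In treated SHR against WKY 0 rose and 2 fell (median 0.07). These were Hsd11b1 (log2 change -0.49, adjusted p = 0.0172, with 0.0515 without WKY replicate 1 and 0.0580 without treated SHR replicate 1) and Cyp11a1 (-0.59, 0.0141, and 0.0555 without WKY replicate 2).

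The fourth list held 19 genes of AT1 receptor coupling and desensitization, all tested. In SHR against WKY 5 rose and 0 fell, where 11.9% of all tested genes rose and 9.93% fell. The median log2 change was 0.27 against 0.01 over all tested genes. With treatment 1 rose and 9 fell, where 16.1% rose and 17.4% fell, with a median of -0.31 against -0.03. In treated SHR against WKY 2 rose and 1 fell, where 12.9% rose and 11.4% fell (median -0.07 against -0.01). Cybb, which encodes the catalytic subunit of the phagocyte NADPH oxidase, was at 3.35 ± 0.429 FPKM in WKY, 7.63 ± 1.00 in SHR and 3.02 ± 0.219 in treated SHR. Its log2 change was 1.08 in SHR against WKY (adjusted p = 0.000245) and -1.20 with treatment (adjusted p = 9.53e-05). Cybb is high in macrophages, whose marker sums are given with Ace, and their part was not tested.

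Rcan1, an inhibitor of calcineurin whose gene is also a target of calcineurin signalling, was at 384, 338 and 375 FPKM in WKY, 458, 475 and 549 in SHR and 293, 244 and 242 in treated SHR. The groups did not overlap, and treated SHR was the lowest. Rcan1 rose by 0.43 in SHR (adjusted p = 0.00960) and fell by 0.93 with treatment (adjusted p = 9.53e-05), and it was 0.50 lower on the log2 scale in treated SHR than in WKY (log2 change -0.50, adjusted p = 0.00451). Gna12, a G protein alpha subunit, was at 63.4 ± 4.34, 84.1 ± 4.37 and 66.0 ± 1.09 FPKM in the same order (adjusted p = 0.00239 in SHR and 0.00367 with treatment). Arrb1, the gene of beta-arrestin 1, fell from 7.75 ± 1.15 in SHR to 5.10 ± 0.280 (log2 change -0.55, adjusted p = 0.00628). The other called genes were Grk5 and Prkca, both higher in SHR than in WKY, Gna11, Gna13, Grk2, Grk5 and Nox4, all lower in treated SHR than in SHR, and Rgs2, higher in treated SHR than in SHR and WKY, with Rgs5 higher than in WKY. Each of these calls was lost in at least 1 alternative. Nox4 was at 0.338, 0.342 and 0.343 FPKM in treated SHR, under the level of the filter. It was tested only through SHR and WKY libraries, so its call with treatment is not independent of the filter. Gnaq, the alpha subunit through which the AT1 receptor mainly signals, was not called in any of the 3 comparisons (limma adjusted p of 0.813, 0.658 and 0.891).

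**Figure D4:**
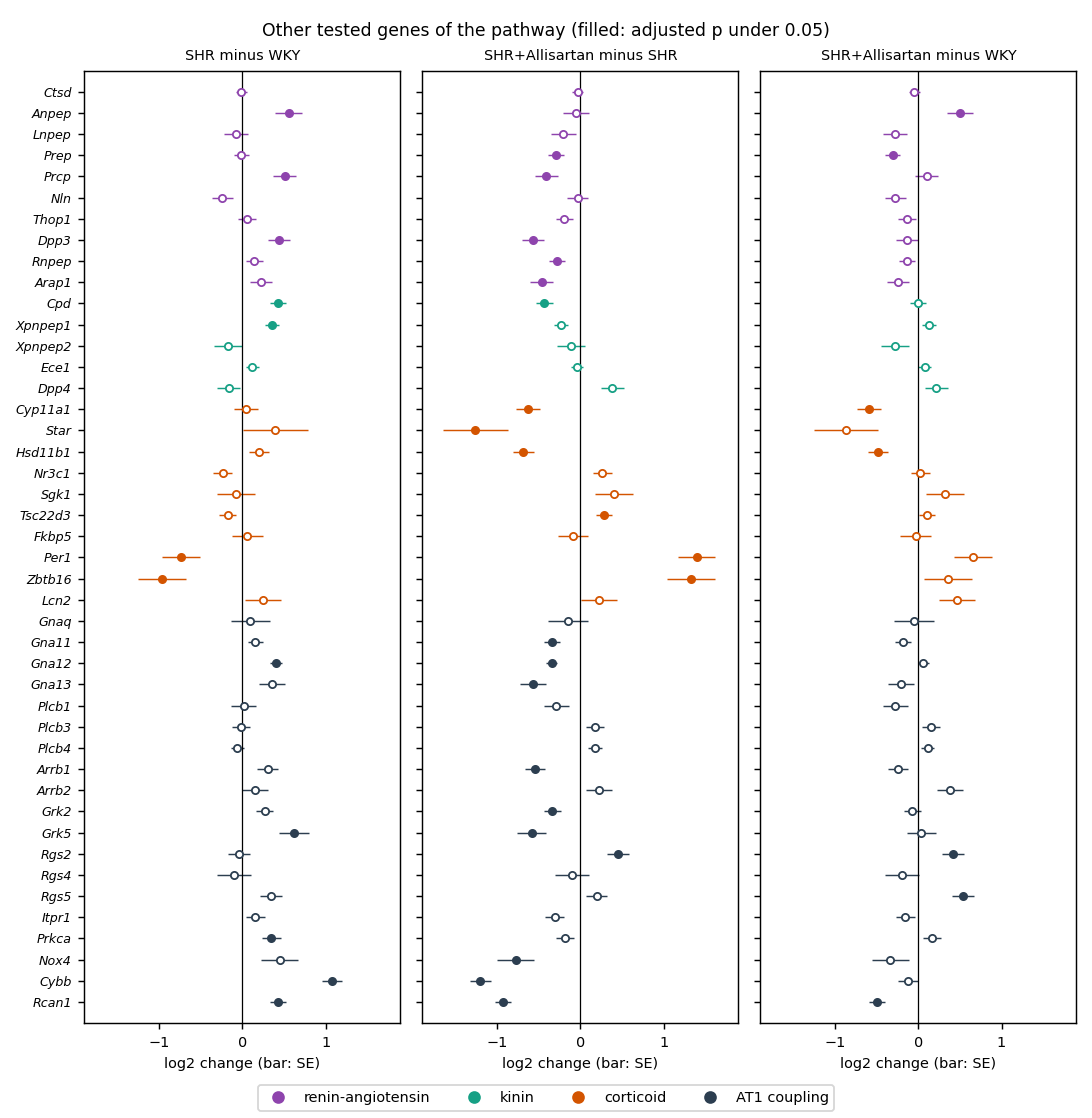
Log2 changes with SE of the 44 tested genes of the 4 lists in the 3 comparisons, coloured by list and filled where the adjusted p was under 0.05. In SHR minus WKY 10 filled points lie right and 2 left of 0, in SHR+Allisartan minus SHR 4 lie right and 18 left, and in SHR+Allisartan minus WKY 3 lie right and 4 left.

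Over the 4 lists, 12 of 44 tested genes were called in SHR against WKY, 22 with treatment and 7 in treated SHR against WKY. Of these, 3, 10 and 1 were called in every alternative analysis in which they were tested. The 3 genes for SHR against WKY were Cybb, Gna12 and Rcan1, and the 1 for treated SHR against WKY was Rcan1. The 10 for treatment were Arrb1, Cpd, Cybb, Cyp11a1, Dpp3, Gna12, Hsd11b1, Per1, Rcan1 and Zbtb16. Without WKY replicates 1, 2 or 3 the count for SHR against WKY was 6, 5 and 7, and without SHR replicates 1, 2 or 3 it was 7, 7 and 7. The count for treatment was 13 without SHR replicate 1, 12 without SHR replicate 3 and 14 without treated SHR replicate 1 or 2. The count for treated SHR against WKY was 3 without WKY replicate 2 and 4 without treated SHR replicate 1 or 2. The shares of all tested genes called were 21.9%, 33.5% and 24.3%, given above. Calls over all genes also fell there. In SHR against WKY they went from 2561 to 1776, 1746 and 2087 without WKY replicates 1, 2 or 3. Without SHR replicates 1, 2 or 3 they were 2356, 1848 and 1551. With treatment they went from 3924 to 3441 without SHR replicate 1 and 2860 without SHR replicate 3. The share of all tested genes called in every alternative was not computed.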

How the data were processed

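RNA of rat heart was sequenced in 9 libraries. Per the labels' protocols, the mirVana kit was used for extraction and the TruSeq stranded mRNA kit for library construction. The authors deposited 1 table of FPKM per gene and library, without counts. The tools named per the submitters' processing notes are DESeq, HTSeq, Cufflinks, HISAT2 and Trimmomatic, and the build is Rnor_6.0. No source used here gives their versions or roles. Depth is unknown, so counting error cannot be stated. Low FPKM values showed no step that gave whole reads in all libraries. Table columns were assigned to groups through the letters in the series' design text. Symbols of 27 genes that had become dates were restored through the gene identifier, of which 20633 matched the reference table.

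Median-of-ratios factors, 1 per library, were taken from the 9194 genes that all libraries held at 1 FPKM or above. The 11717 genes that reached 0.5 in 3 or more libraries were tested. limma 3.58.1 in R 4.3.3 was fitted to log2(value + 0.5) of all 9 libraries with a variance trend, giving 3 contrasts and an F-test. Two-sided p-values were adjusted over all tested genes (Benjamini-Hochberg), and a gene was called under 0.05. Agt and Cma1 were tested with exact permutation tests (scipy 1.17.1). The fit was also tested on simulated data. Python 3.11.15 with matplotlib 3.10.9 drew the figures. Promoter windows come from RefSeq on GRCr8, a build other than that of the table, so no gene coordinates are given beyond those windows.

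All 9 members are described. Genes of 4 pathway lists are named where called in any comparison, a few others where a result turns on them, and for each called member the 3 genes most alike. Some genes of the first list are not reported here. Members, lists and tests were chosen with earlier results of these data known. Alternatives were other scalings, pseudocounts and filters, array weights, robust moderation, a replicate block, a fit to the 6 libraries compared and leaving out each library. Removal of the trend with genomic span was added after seeing the data. With treatment the median log2 change was 0.006 in the fifth of genes with the shortest span and -0.081 in the fifth with the longest. With this trend removed, 7 pathway genes rose and 15 fell with treatment, against 4 and 18 in the main fit. Of the members 1 rose and 2 fell, against 0 and 2. The cause of the trend was not tested.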

Additional observations from a re-analysis of the deposited data

How the results depend on the processing

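Each change of the 7 tested members was recomputed under up to 21 alternatives, which gave 434 values. Of these, 398 kept their direction and their side of the threshold, 11 lost a call, 11 gained one and 14 reversed. Reversals were in Agtr1a and Agtrap, neither of which was called. Agtr1a in SHR against WKY was at 0.0231 (log2) with no rescaling and 0.0611 with a pseudocount of 0.1, and at -0.40 to 0.20 leaving out 1 library each. Leaving out 1 library, Agtr1a was at -0.15 to 0.28 with treatment and -0.33 to 0.27 in treated SHR against WKY. Agtrap with treatment was at 0.0021 with cyclic loess and -0.10 to 0.0812 leaving out 1 library each.

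The 2 members called in SHR against WKY were 1 with a filter of 1 FPKM, at which Bdkrb2 was not tested, and 1 to 2 leaving out 1 library each. The 2 called with treatment were 1 to 3. The 1 called in treated SHR against WKY was 2 with cyclic loess, 0 with array weights, 0 with only the 6 libraries of the contrast and 0 to 2 leaving out 1 library each. Pathway calls in SHR against WKY numbered 6 with no filter on low values and 5 to 12 leaving out 1 library each. Those with treatment numbered 12 to 22 and those in treated SHR against WKY 3 to 7. Over all genes, leaving out 1 library gave 1551 calls (without SHR replicate 3) to 2623 in SHR against WKY. Where not stated above, the cause was not tested.

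With the replicate number as a block, 0 members were called in treated SHR against WKY, Nr3c2 passed with treatment (0.0479) and calls over all genes were 2544, 3851 and 2758. Deviations of same-numbered libraries from their group means correlated at -0.0623 to 0.0828, and those of other pairs between groups at -0.0694 to 0.0640. Such correlations over all genes cannot show whether same-numbered libraries shared a batch that acts on some genes. Unknown depth and 3 libraries a group limit the low genes Agt, Cma1, Bdkrb2, Mme and Agtr1a most.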

Other observations

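Nppa, the atrial natriuretic peptide gene, was at 1872 ± 245 FPKM in WKY, 4289 ± 1507 in SHR and 340 ± 130.02 in treated SHR (n = 3 each), and made up most of the sum of the 6 atrial cardiomyocyte markers. The other markers did not move with it as a set. Nppa and Myl4 rose in SHR against WKY, Dkk3 fell (log2 change -0.73), and Myl7 and Sln were not called. With treatment Nppa fell (log2 change -3.67) and the other 4 tested were not called. Of the 4 adrenal cortex markers, Cyp11a1 and Star were tested, and the list had sums of 4.58 to 5.20 FPKM for WKY, 5.04 to 5.32 for SHR and 2.08 to 3.01 for treated SHR. Both genes were called lower with treatment, Star with the limit of the filter given above. The 8 smooth muscle and pericyte markers had sums of 229 to 294 FPKM for WKY, 338 to 362 for SHR and 293 to 375 for treated SHR. Of these 4 rose and 0 fell in SHR against WKY, where 11.9% of all tested genes rose and 9.93% fell. With treatment 0 rose and 1 fell, where 16.1% rose and 17.4% fell. The liver, which makes most circulating angiotensinogen, was represented by 4 markers, of which 1 was tested and not called in any comparison.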
